A study of Mus musculus with 8 samples.

Results

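The Hox cluster genes were described across 4 groups of mouse cells. The members are all genes of the deposited fragment table whose symbol is Hox followed by a cluster letter from a to d and a paralog number. There were 39 of them among 22558 genes, and they comprised 11 HoxA, 10 HoxB, 9 HoxC and 9 HoxD genes. RNA-seq had been made from cells carrying the surface protease FAP (fibroblast activation protein-alpha), a marker of stromal fibroblasts, which were sorted by flow cytometry from visceral adipose tissue, from skeletal muscle and from pancreas, where the labels call them stellate cells. The comparison group was FAP- MEFs, which are embryonic fibroblasts sorted for absence of FAP, grown in culture for 3 passages and sorted again. Each group had 2 libraries, which the labels call biological replicates. The fibroblasts of the comparison group were cultured and embryonic, whereas the FAP+ cells came directly from tissue, so FAP status, culture, age and origin cannot be told apart in any comparison with them. The embryonic region that gave the MEFs, and the strain and age of the animals, are not given in the labels.

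Hox genes encode homeodomain transcription factors and lie in 4 clusters, HoxA to HoxD, each on a different chromosome. Within a cluster the genes are numbered by paralog group, and genes with low numbers are switched on early and towards the head of the embryo, whereas genes with high numbers are switched on later and further towards the tail, or towards the tip of a limb. Adult fibroblasts are known to keep a Hox pattern that reflects the body position from which they came, and the factors bind DNA together with TALE cofactors of the Pbx and Meis families.

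Summed estimated fragments per library ranged from 15516281 to 27759435. Hox genes took 0.01109% to 0.02113% of them in the FAP+ libraries and 0.04774% and 0.04596% in the MEF libraries. Fap itself stood at 31.2 ± 4.54 CPM in adipose, 97.9 ± 12.8 in muscle, 60.5 ± 7.23 in the pancreas and 1.44 ± 1.31 in MEFs (SD, n = 2), where CPM is the edgeR count-per-million value after TMM scaling of the libraries. All 12 stroma markers listed were at 1 CPM or more in both libraries of each FAP+ group. Adipose library 1 had the lowest TMM factor, 0.5156, against 0.8886 to 1.312 in the other libraries. Endothelial markers summed to 546 to 704 CPM in adipose, 102 to 172 in muscle, 67.2 to 77 in pancreas and 3.13 to 3.66 in MEFs. Tek alone gave 86.3 to 102 CPM of this in muscle and 58 to 68.7 in pancreas, and the 7 other endothelial markers summed to 495 to 621 in adipose, 15.9 to 70.4 in muscle, 8.26 to 9.22 in pancreas and 2.61 to 2.76 in MEFs. Leukocyte markers summed to 38.9 to 96.2 CPM in adipose and to 2.49 to 6.93 elsewhere, and pancreas epithelial markers to 76.7 to 159 in pancreas and 1.54 to 7.32 elsewhere. Mesothelial markers summed to 81.5 to 98.5 CPM in adipose, 5.71 to 8.1 in muscle, 96.1 to 273 in pancreas and 57.1 to 74.3 in MEFs. Different genes carried these sums. Wt1 alone gave 64.3 and 92.6 CPM in adipose. Krt8 gave 111 and 35.9 CPM in pancreas, and Krt18 97 and 26.5. In MEFs Krt19 gave 28 and 35.7 CPM and Krt18 16.8 and 27.3. These levels move with the groups, and their part in the Hox differences was not tested. In sorted bulk RNA, fewer cells that express a gene and less RNA per cell cannot be told apart.

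The number of Hox genes detected, meaning at 1 FPKM or more (the authors' length- and depth-normalised fragment value) in both libraries of a group, was 16 of 39 in adipose, 17 in muscle, 14 in pancreas and 31 in MEFs. FPKM carries no TMM scaling, and the TMM factors were 0.5156 and 0.8886 in adipose against 1.312 and 1.31 in MEFs. The limit of 1 FPKM was therefore stricter in adipose. Hoxa6, at 0.61 and 0.933 CPM in adipose and 0.63 and 0.668 in MEFs, counted as detected in MEFs only. The part of this in the difference in numbers was not tested. The groups differed in how far detection extended along each cluster. In HoxA the detected gene with the highest paralog number was Hoxa7 in adipose and pancreas, Hoxa10 in muscle and Hoxa13 in MEFs. In HoxC it was Hoxc6 in pancreas, Hoxc9 in adipose, Hoxc11 in muscle and Hoxc10 in MEFs. The last 2 limits turned on 1 library, as Hoxc11 was at 3.05 and 1.15 FPKM in muscle and 0.316 and 1.5 in MEFs. In HoxB it was Hoxb7 in adipose and pancreas, Hoxb6 in muscle, where Hoxb7 was at 1.35 and 0.675 FPKM, and Hoxb9 in MEFs. Of the HoxD genes, Hoxd8 alone was detected in adipose and in muscle and none in pancreas, whereas MEFs had 6 detected HoxD genes up to Hoxd13. The map of levels by cluster and paralog number shows these limits library by library.

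**Figure D1:**
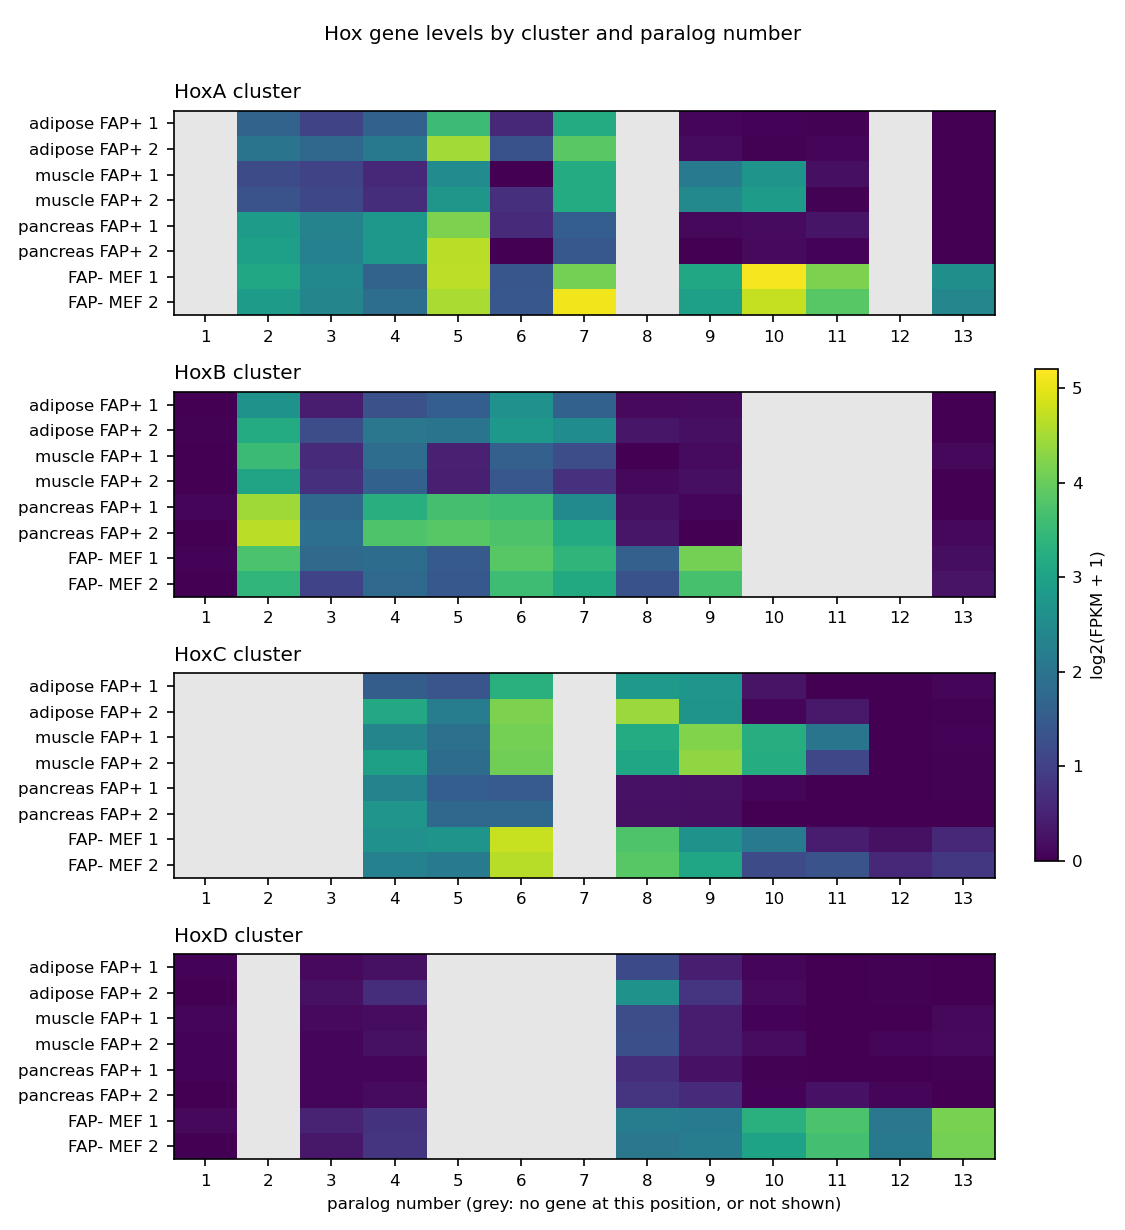
Colour gives log2(FPKM + 1) of each Hox gene, with the paralog number on the horizontal axis, the 8 libraries on the vertical axis and a panel for each cluster, and grey marks positions without a gene or not shown. In HoxA both libraries of a group share the extent of the coloured stretch, which ends at paralog 7 in adipose and pancreas, at 10 in muscle and at 13 in MEFs.

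On the FPKM scale, which divides by transcript length, the clusters took different shares of the Hox total in the 4 groups. Amplification favouring 3′ ends and the bias adjustment limit such comparisons between genes, and in adipose library 1 the ratio of RPKM to FPKM reached 4.28 at Hoxc8. HoxA was the largest share in MEFs, with 41.9% and 44.9%, and gave 34.9% and 33.3% in pancreas and 23.8% and 27.3% in muscle. HoxC gave 57.4% and 58.3% of the summed Hox FPKM in the muscle libraries. In pancreas, HoxB gave 56.4% and 57.1%, and HoxC 7.76% and 8.27%. In adipose, HoxA gave 37.4% and 34.2% and HoxC 35.5% and 40.8%. HoxD gave 17% and 16.9% in MEFs and between 0.939% and 5.22% in the FAP+ libraries. Paralogs 9 to 13 of all clusters together gave 46.2% and 42.6% in MEFs, 36.9% and 38.2% in muscle, 9.61% and 5.22% in adipose and 0.957% and 0.943% in pancreas. The gene with the highest mean level was Hoxa5 in adipose (16.1 FPKM), Hoxc9 in muscle (18.5), Hoxb2 in pancreas (22.6) and Hoxa10 in MEFs (29.9).

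Of the 39 members, 35 passed the filter on low fragment counts and were tested. Hoxb1, Hoxb13, Hoxc12 and Hoxd1 did not pass, and their highest value in any library was 0.273 CPM. Of the 35 tested, 16 were at the filter's level in both libraries of every group. By contrast, 12 passed only through the MEFs and 1, Hoxc11, only through muscle. This favours a difference between groups, so how many of these 13 differed supports nothing. Hoxa9, Hoxa10, Hoxc8, Hoxc9, Hoxc10 and Hoxd9 were at the filter's level in only 2 or 3 of the groups. In edgeR's quasi-likelihood test with Benjamini-Hochberg adjustment over the 14847 genes tested, 30 of the 35 differed among the 4 groups at an adjusted p below 0.05, against 49.9% of all genes tested. Of these 30, 13 were among the 16 members at the filter's level in every group. Among the 3 FAP+ groups 17 differed, against 10.6% of all genes tested. Of these 17, 12 were among the 16 members at the filter's level in every group. The count of 17 fell to 9 without muscle library 1, 9 without muscle library 2, 10 without pancreas library 1 and 9 without pancreas library 2.

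To show the letters in front of genes with 4 different patterns, the 250 bases upstream of the annotated start are printed for Hoxa5 (detected in every group), Hoxb4 (highest in pancreas), Hoxa10 (muscle and MEFs) and Hoxd13 (MEFs). They come from RefSeq on GRCm38.p6, a later build than the mm9 named for the deposited data, run 5′ to 3′ on the gene's strand, and lie at chr6:52204588-52204837 (minus strand), chr11:96318017-96318266 (plus), chr6:52234940-52235189 (minus, 1 of the starts listed for Hoxa10) and chr2:74667975-74668224 (plus). Capitals mark the TATA motif, TATAAA on either strand.
Hoxa5: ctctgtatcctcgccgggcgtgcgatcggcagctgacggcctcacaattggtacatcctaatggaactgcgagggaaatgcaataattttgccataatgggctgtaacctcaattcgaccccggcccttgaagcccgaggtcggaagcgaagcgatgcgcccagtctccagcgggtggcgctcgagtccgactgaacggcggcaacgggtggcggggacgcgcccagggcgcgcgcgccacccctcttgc
Hoxb4: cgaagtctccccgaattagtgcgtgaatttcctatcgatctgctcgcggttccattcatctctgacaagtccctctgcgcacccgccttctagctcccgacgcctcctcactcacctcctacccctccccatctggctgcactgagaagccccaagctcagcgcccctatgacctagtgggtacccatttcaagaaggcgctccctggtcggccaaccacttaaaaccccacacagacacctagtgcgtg
Hoxa10: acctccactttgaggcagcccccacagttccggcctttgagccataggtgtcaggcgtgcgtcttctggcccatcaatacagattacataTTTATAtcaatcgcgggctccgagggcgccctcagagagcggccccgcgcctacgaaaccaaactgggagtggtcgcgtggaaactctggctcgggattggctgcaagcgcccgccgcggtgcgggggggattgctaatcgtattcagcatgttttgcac
Hoxd13: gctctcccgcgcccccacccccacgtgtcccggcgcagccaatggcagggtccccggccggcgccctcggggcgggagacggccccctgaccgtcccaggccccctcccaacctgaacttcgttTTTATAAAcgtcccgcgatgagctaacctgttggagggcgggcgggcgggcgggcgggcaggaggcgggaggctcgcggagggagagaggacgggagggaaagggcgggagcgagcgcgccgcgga
Hoxa10 and Hoxd13 hold the TATA motif, and Hoxa5 and Hoxb4 hold none of the 4 motifs searched on both strands, which were TATA, the Cdx motif TTTATG, the Hox-Pbx motif TGATTNAT and the Meis motif TGACAG. The TATA motif is in 4 of the 24 Hox promoters listed and in 12.4% of all 32851 promoters, and the Cdx motif is in 5 of 24 and in 10.8%. The Hox-Pbx motif is in 2 of 24 and in 2.82%, and the Meis motif is in 2 of 24 and in 15.9%. The CpG count of the 250 bases is 28 for Hoxa5, 14 for Hoxb4, 20 for Hoxa10 and 31 for Hoxd13, with a median of 12.5 over the Hox promoters and 6 over all promoters. The other Hox promoters with a TATA match are those of Hoxb8 and Hoxd4.

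Hoxa2 to Hoxa5, which pattern the hindbrain, neck and upper trunk, had fragments in every library and were lowest in muscle. Hoxa4 was below the detection level there, at 0.512 and 0.606 FPKM. Hoxa5, a gene needed for lung and neck skeleton development, stood at 34.9 and 36.1 CPM in adipose, 7.97 and 9.31 in muscle, 26.8 and 34.3 in the pancreas and 25.2 and 24.8 in MEFs. The muscle libraries lay below all others. It was lower in muscle than in adipose by a log2 fold change of -2.04 (SE 0.25, adjusted p = 0.00698) and higher in pancreas than in muscle by 1.82 (SE 0.25, adjusted p = 0.00966). Hoxa4, its neighbour, stood at 5.41 and 4.54 CPM in adipose, 0.702 and 0.815 in muscle, 7.45 and 6.7 in the pancreas and 1.8 and 2.43 in MEFs, so that no group overlapped another. It was lower in muscle than in adipose (log2 -2.70, SE 0.37, adjusted p = 0.0091) and higher in pancreas than in muscle (3.21, SE 0.37, adjusted p = 0.00583). Hoxa2, which specifies neural crest of the second pharyngeal arch, gave 6.1 and 4.58 CPM in adipose, 1.98 and 2.19 in muscle, 8.76 and 8.37 in the pancreas and 7.11 and 6.28 in MEFs. The muscle libraries again lay below the rest, and pancreas exceeded muscle by 2.03 (SE 0.30, adjusted p = 0.0146). Muscle was below adipose by -1.35 (SE 0.30, adjusted p = 0.044), a call that was lost with the replicate number as a block (adjusted p = 0.0672) and without any library but adipose 2 (adjusted p from 0.00499 to 0.316 over the alternatives). Hoxa3, needed for thymus and parathyroid development, gave 2.49 and 2.57 CPM in muscle and 8.55 and 7.43 in pancreas, which did not overlap (log2 1.66, SE 0.29, adjusted p = 0.0243). Hoxa6 stayed at or below 0.933 CPM in every library. Hoxa3 overlaps Hoxa4, Hoxa5 and Hoxa6 in the RefSeq annotation, so fragments of these genes may be shared between them.

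Hoxa7, a gene of the thoracic region, was lowest in pancreas, unlike Hoxa2 to Hoxa5. It stood at 27.4 and 24.3 CPM in adipose, 14.4 and 13.6 in muscle, 3.13 and 2.49 in the pancreas and 17.5 and 38.1 in MEFs. Pancreas lay below every other library, by a log2 fold change of -3.20 against adipose (SE 0.41, adjusted p = 0.00568), -2.31 against muscle (SE 0.40, adjusted p = 0.0237) and -3.31 against MEFs (SE 0.41, adjusted p = 0.000692). The MEF libraries lay on either side of the adipose values, and both muscle libraries lay below both MEF libraries. The differences from MEFs were -0.11 in adipose (SE 0.37, adjusted p = 0.822) and -0.99 in muscle (SE 0.37, adjusted p = 0.0625), neither of which passed the test. Hoxa9, which acts in the lower trunk and in blood stem cells, gave 0.229 and 0.243 CPM in adipose, 6.82 and 8.67 in muscle, 0.156 and 0 in the pancreas and 9.57 and 8.92 in MEFs. Muscle and MEFs were thus high and the other groups close to the level of 3 fragments per library. Muscle exceeded adipose, which had 9 fragments in all, by a log2 fold change of 5.0 (SE 0.62, adjusted p = 0.00746). Pancreas had 3 fragments in all, and muscle was 102-fold higher (95% counting interval 34.4 to 495).

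Hoxa10, a gene of the lumbar spine, the hindlimb and the uterus, showed the same separation with a wider range. It stood at 0.229 and 0.122 CPM in adipose, 23.4 and 25.4 in muscle, 0.469 and 0.364 in the pancreas and 87.6 and 71.8 in MEFs, and no group overlapped another. Muscle was higher than adipose by a log2 fold change of 7.19 (SE 0.39, adjusted p = 0.000497), pancreas lower than muscle by -5.85 (SE 0.35, adjusted p = 0.000719), and muscle lower than MEFs by -1.71 (SE 0.26, adjusted p = 0.00178). Adipose had 6 Hoxa10 fragments in all, so the size of the first difference depends on the prior count. The next genes along the cluster separated MEFs from every FAP+ group. Hoxa11, which acts in the forearm and lower leg, gave 20.9 and 17.9 CPM in MEFs and at most 0.417 in a FAP+ library. Its differences from MEFs were -7.46 in adipose (SE 0.88, adjusted p = 0.000501), -6.86 in muscle (SE 0.84, adjusted p = 0.000635) and -6.34 in pancreas (SE 0.80, adjusted p = 0.000747). They rest on 4, 6 and 9 fragments in these tissues, so their size and order depend on the prior count. Hoxa13, a gene of the hand, foot and urogenital end of the body, had 120 and 109 fragments in the MEF libraries (3.6 and 3.31 CPM) and 0 in all 6 FAP+ libraries. At a floor of 3 fragments per library this made MEFs at least 19.7-fold higher than adipose, at least 21.6-fold higher than muscle and at least 22.1-fold higher than pancreas, with adjusted p = 0.0024, 0.00258 and 0.00268. The antisense transcript Hoxa11as, listed as a gene of its own, followed Hoxa11, with 15.3 and 18.5 CPM in MEFs and at most 0.534 in a FAP+ library. Whether the counting used strand is stated nowhere in these sources, so reads of the pair may not be separable.

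**Figure D2:**
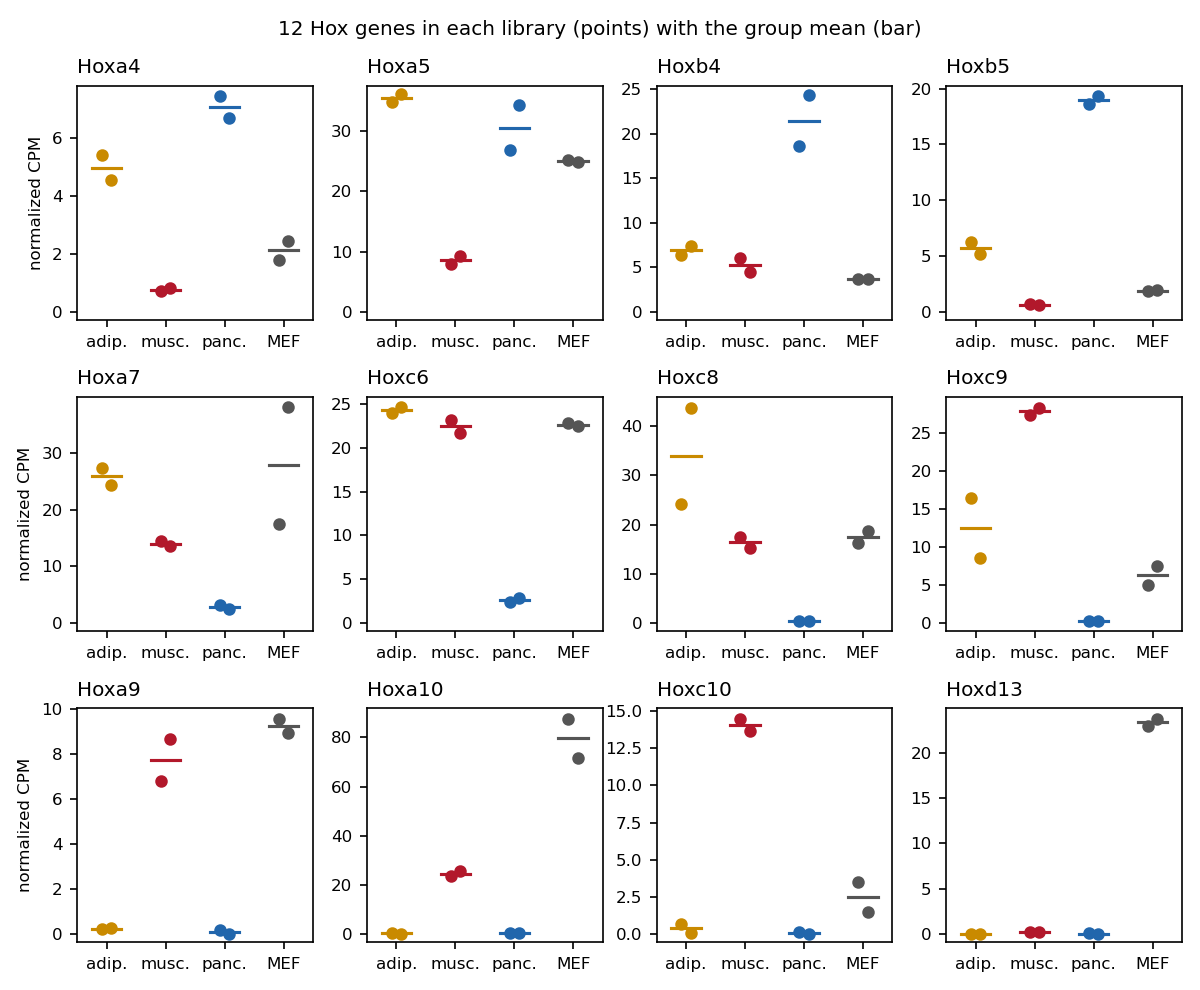
Points give normalized CPM of 12 Hox genes in the 2 libraries of each group (adip., musc. and panc. are the FAP+ cells of adipose, muscle and pancreas), and bars the group mean, with a separate vertical scale for each gene. Hoxa4, Hoxb4 and Hoxb5 are highest in pancreas, Hoxc9 and Hoxc10 are highest in muscle, and Hoxd13 is near 0 outside MEFs.

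Among HoxB genes, which act in the hindbrain, heart field and trunk, Hoxb2, Hoxb4 and Hoxb5 were highest in pancreas. Hoxb5 stood at 6.25 and 5.19 CPM in adipose, 0.702 and 0.601 in muscle, 18.6 and 19.3 in the pancreas and 1.86 and 1.91 in MEFs, so that the 4 groups were fully separated. Pancreas exceeded muscle by a log2 fold change of 4.86 (SE 0.32, adjusted p = 0.000963), adipose by 1.73 (SE 0.27, adjusted p = 0.0108) and MEFs by 3.32 (SE 0.29, adjusted p = 0.000152). Muscle was lower than adipose by -3.13 (SE 0.31, adjusted p = 0.00392). Hoxb4, known for expanding blood stem cells when overexpressed, gave 6.33 and 7.42 CPM in adipose, 6.06 and 4.5 in muscle, 18.6 and 24.3 in the pancreas and 3.63 and 3.7 in MEFs. Here pancreas lay above all other libraries and adipose and muscle were close to each other. The log2 differences of pancreas were 1.64 from adipose (SE 0.29, adjusted p = 0.0159), 2.02 from muscle (SE 0.29, adjusted p = 0.0129) and 2.54 from MEFs (SE 0.30, adjusted p = 0.000544). Hoxb2, a gene of hindbrain rhombomere identity, gave 28.5 and 29.8 CPM in pancreas, 10.9 and 9.38 in MEFs, and 10 to 15.6 in adipose and muscle. Pancreas again did not overlap any other group, and its difference from MEFs was 1.52 (SE 0.29, adjusted p = 0.00492), while with limma on log2(FPKM + 1) it was 0.98 with adjusted p = 0.0524 (4.69e-05 to 0.0674 over the alternatives). Its differences from adipose and muscle did not pass the test.

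Hoxb6 and Hoxb7, which act in the trunk, were lowest in muscle. Hoxb6 gave 11.7 and 6.94 CPM in adipose, 2.42 and 1.89 in muscle, 12.2 and 12.5 in the pancreas and 9.66 and 8.59 in MEFs. Its muscle values lay below all others, by a log2 fold change of -2.11 against adipose (SE 0.34, adjusted p = 0.0165), and pancreas exceeded muscle by 2.52 (SE 0.35, adjusted p = 0.0101). Hoxb7 gave 4.5 and 5.43 CPM in adipose, 1.53 and 0.729 in muscle, 4.85 and 7.69 in the pancreas and 6.6 and 5.92 in MEFs. The muscle libraries were again the lowest, below adipose by -2.16 (SE 0.45, adjusted p = 0.0349) and below pancreas, which exceeded them by 2.49 (SE 0.45, adjusted p = 0.0281). The first of these calls was lost with the replicate number as a block (adjusted p = 0.052, with 0.000372 to 0.258 over the alternatives). Hoxb3, which overlaps Hoxb4 in the annotation, gave 13 and 13.9 CPM in pancreas and 3.38 to 9.18 elsewhere, and no pairwise difference passed the test. At the posterior end Hoxb8 gave 2.91 and 2.28 CPM in MEFs and at most 0.608 in FAP+ libraries. Hoxb9, a gene of the thoracic rib cage, gave 24.1 and 18.9 CPM in MEFs and at most 0.457 in FAP+ libraries, with no overlap. Its log2 difference from MEFs was -5.64 in adipose (SE 0.59, adjusted p = 0.000288) and -6.01 in muscle (SE 0.60, adjusted p = 0.000273). Pancreas had 3 Hoxb9 fragments in all, and MEFs were 276-fold higher (95% counting interval 94.3 to 1340).

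Within HoxC, pancreas was the lowest group at Hoxc6, Hoxc8 and Hoxc9, and muscle was the highest at Hoxc9 and Hoxc10. Hoxc6, a thoracic gene, stood at 24 and 24.7 CPM in adipose, 23.2 and 21.7 in muscle, 2.4 and 2.86 in the pancreas and 22.8 and 22.5 in MEFs. Pancreas was the one low group, by a log2 fold change of -3.21 against adipose (SE 0.25, adjusted p = 0.00194), -3.09 against muscle (SE 0.25, adjusted p = 0.00183) and -3.11 against MEFs (SE 0.25, adjusted p = 0.000114). Hoxc8, which acts in the lower thorax, gave 24.1 and 43.8 CPM in adipose, 17.5 and 15.3 in muscle, 0.365 and 0.312 in the pancreas and 16.3 and 18.7 in MEFs. Pancreas had 13 fragments in total and lay below adipose by -6.63 (SE 0.44, adjusted p = 0.00154), below muscle by -5.57 (SE 0.43, adjusted p = 0.00145) and below MEFs by -5.67 (SE 0.43, adjusted p = 8.87e-05). Hoxc9, which marks the boundary between thorax and lumbar region, gave 16.5 and 8.52 CPM in adipose, 27.4 and 28.4 in muscle, 0.261 and 0.208 in the pancreas and 4.98 and 7.53 in MEFs. The 4 groups did not overlap, and muscle was the highest. Pancreas had 9 fragments in all. It was below adipose by -5.70 (SE 0.51, adjusted p = 0.00263) and below muscle by -6.86 (SE 0.52, adjusted p = 0.00136), and muscle was above MEFs by 2.16 (SE 0.38, adjusted p = 0.00324).

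Hoxc10, a gene of the lumbar region and hindlimb, gave 0.686 and 0.0811 CPM in adipose, 14.5 and 13.7 in muscle, 0.104 and 0 in the pancreas and 3.51 and 1.49 in MEFs. The muscle libraries lay above all others. Muscle exceeded adipose by a log2 fold change of 5.39 (SE 0.92, adjusted p = 0.0185) and MEFs by 2.49 (SE 0.74, adjusted p = 0.0277). Pancreas had 2 fragments in all, and muscle was 270-fold higher (95% counting interval 74.3 to 2230). Hoxc11 had 39 and 21 fragments in muscle, 0 and 6 in adipose, 0 in both pancreas libraries and 5 and 27 in MEFs. Muscle was at least 10.9-fold higher than pancreas at the floor, with adjusted p = 0.0913 and no call. Hoxc4 and Hoxc5, the anterior end of the cluster, showed no pairwise difference that passed the test, with 4.55 to 14 CPM and 4.43 to 8.96 CPM over all 8 libraries. Hoxc13, a gene of hair and nail, gave 0.66 and 1.12 CPM in MEFs and at most 0.229 in FAP+ libraries.

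HoxD was the cluster with the least RNA in FAP+ cells. Hoxd8 stood at 3.05 and 6.98 CPM in adipose, 1.72 and 1.72 in muscle, 0.73 and 0.779 in the pancreas and 2.82 and 2.64 in MEFs. The pancreas libraries were the lowest, below adipose by a log2 fold change of -2.73 (SE 0.49, adjusted p = 0.0165) and below MEFs by -1.85 (SE 0.48, adjusted p = 0.0172). Hoxd4 gave 0.762 and 1.42 CPM in adipose and 0.104 and 0.208 in pancreas, without overlap (log2 -2.79, SE 0.65, adjusted p = 0.0384). It passed the filter only through the MEFs, and pancreas had 6 fragments in all. The call was lost in edgeR with library totals alone (-2.22, adjusted p = 0.108) and without the filter (-2.76, adjusted p = 0.0623). It was also lost with limma on log2(FPKM + 1) (-0.35, adjusted p = 0.205). Hoxd9 gave 3.81 and 4.37 CPM in MEFs and 0.313 to 1.34 in FAP+ libraries, and was below MEFs by -1.63 in adipose (SE 0.49, adjusted p = 0.0271), in muscle by -2.72 (SE 0.52, adjusted p = 0.00489) and in pancreas by -2.76 (SE 0.53, adjusted p = 0.00471). The posterior genes that shape the forearm and digits, Hoxd10 to Hoxd13, were all high in MEFs and near 0 elsewhere. Hoxd13 had 766 and 784 fragments in MEFs (23 and 23.8 CPM), 0 and 0 in adipose, 3 and 5 in muscle, and 1 and 0 in pancreas. MEFs were at least 133-fold higher than adipose at the floor and 899-fold higher than pancreas (95% counting interval 161 to 35500), and muscle was lower than MEFs by -6.80 (SE 0.50, adjusted p = 0.000149). Hoxd11 gave 6.78 and 6.89 CPM in MEFs, 0 in the adipose and muscle libraries, and 0 and 0.156 in pancreas. Hoxd10 gave 8.7 and 7.44 CPM in MEFs and at most 0.215 elsewhere, and Hoxd12 4.32 and 4.83 CPM in MEFs and at most 0.104 elsewhere. None of these 4 genes had a FAP+ library that overlapped the MEFs. Hoxd10 overlaps Hoxd11, and Hoxd3 overlaps Hoxd4, in the annotation.

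Against MEFs, the 16 members at the filter's level in both libraries of every group gave 3 calls in adipose, each higher, 8 in muscle, each lower, and 7 in pancreas, 4 higher and 3 lower. These are 18.8%, 50.0% and 43.8% of the 16, beside 50.1%, 43.8% and 42.5% of all genes tested, so the shares in muscle and pancreas were near the background and that in adipose was below it. The median log2 fold change over the 16 was 0.18 in adipose, -1.13 in muscle and 0.37 in pancreas, beside 0.05, 0.03 and 0.02 over all genes tested. Over all 35 tested Hox genes, 4 were higher and 13 lower in adipose, 2 and 19 in muscle, and 4 and 20 in pancreas. Since 12 of the 35 passed the filter only through the MEFs, which favours lower values in the tissues, the counts over the 35 are a description. The same holds at the posterior end, where 8 of the 14 tested members of paralog groups 9 to 13 passed only through the MEFs and were lower in all 3 tissues. The other 6 were Hoxa9, Hoxa10, Hoxc9, Hoxc10, Hoxc11 and Hoxd9. Of these, 4 were lower in adipose and 5 in pancreas, while in muscle 2, Hoxa10 and Hoxd9, were lower and 2, Hoxc9 and Hoxc10, higher. None of the 6 was at the filter's level in both pancreas libraries. Hoxa9, Hoxa10, Hoxc10 and Hoxc11 were not at it in both adipose libraries. The filter thus favours lower values there too, and these counts are also a description. Over all genes tested, adipose had 23.2% lower than MEFs, muscle 20.0% and pancreas 19.4%. All 3 comparisons share the MEF libraries and are not independent of each other.

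**Figure D3:**
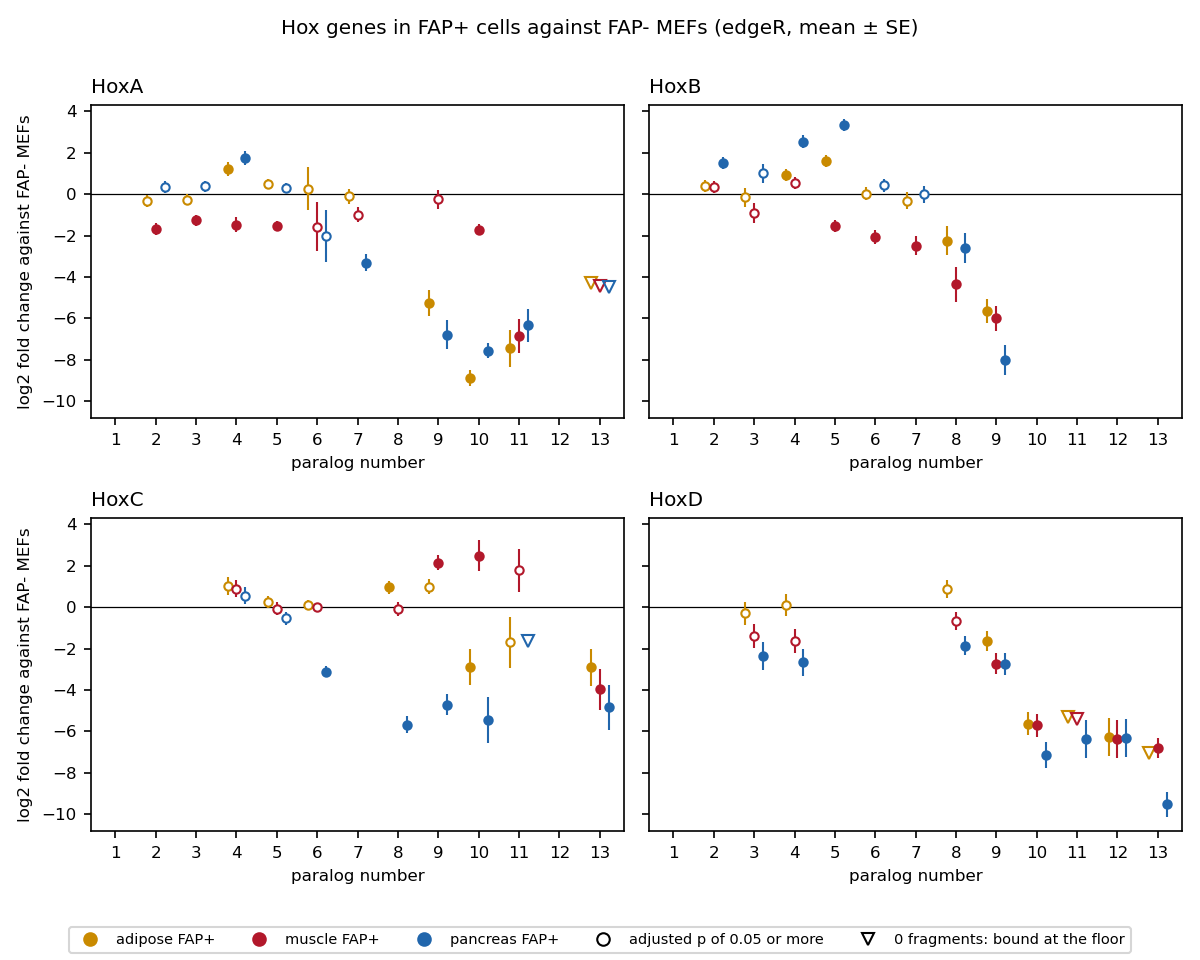
Points give the edgeR log2 fold change of the tested Hox genes shown in the 3 FAP+ groups against FAP- MEFs, with bars of 1 SE, by paralog number in a panel for each cluster; open points missed the adjusted p threshold of 0.05, and open triangles mark genes with 0 fragments at the bound set by the floor of 3 fragments per library. Values of Hoxa4, Hoxb4 and Hoxb5 lie above 0 in adipose and pancreas, and values lie below -4 for Hoxb9 and Hoxd10 to Hoxd13 in all 3 tissues.

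The genes higher in adipose than in MEFs were Hoxa4 (log2 1.23, SE 0.33, adjusted p = 0.0178), Hoxb4 (0.91, SE 0.29, adjusted p = 0.0326), Hoxb5 (1.59, SE 0.28, adjusted p = 0.00274) and Hoxc8 (0.96, SE 0.32, adjusted p = 0.0381). These calls depended on the scaling. With library totals alone the split of 4 higher and 13 lower became 0 and 16, the median of all genes tested moved by -0.88, and the 4 genes stood at 0.30, 0.04, 0.66 and 0.16. With limma on log2(FPKM + 1) Hoxb4 stood at -0.13 and Hoxc8 at -0.20. The 17 calls in adipose fell to 10 without MEF library 1. The share of all genes tested that were called fell as well in that fit. Hoxa4 was also higher in pancreas than in MEFs (1.74, SE 0.33, adjusted p = 0.00496), and lower in muscle (-1.47, SE 0.36, adjusted p = 0.0134). In muscle the HoxA genes from Hoxa2 to Hoxa5 were all lower than in MEFs, by log2 fold changes from -1.27 to -1.68, as were Hoxb5 (-1.54), Hoxb6 (-2.09) and Hoxb7 (-2.49). Calls kept whichever of the 8 libraries was left out numbered 10 of 17 in adipose, 14 of 21 in muscle and 18 of 24 in pancreas.

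Between tissues of origin, with no MEF library in the contrast, 15 Hox genes differed between pancreas and muscle, 9 between muscle and adipose and 8 between pancreas and adipose. Without muscle library 1 or muscle library 2 the order of these counts changed, with 6 between pancreas and muscle and 7 between pancreas and adipose. Between pancreas and muscle 8 of 35 tested Hox genes were higher in pancreas and 7 lower, 42.9% against 3.67% of all genes tested (1.54% higher and 2.14% lower). Those higher in pancreas were Hoxa2 to Hoxa5 and Hoxb4 to Hoxb7, and those lower were Hoxa7, Hoxa9, Hoxa10, Hoxc6, Hoxc8, Hoxc9 and Hoxc10. Of those lower, Hoxa9, Hoxa10, Hoxc8, Hoxc9 and Hoxc10 were not at the filter's level in both pancreas libraries, which favours lower values there. Of the 16 members at that level in every group, 8 were higher and 2 lower, or 62.5%. Without a muscle or pancreas library the share of all genes tested that were called fell, and so did the Hox count. Without muscle library 1, muscle library 2, pancreas library 1 or pancreas library 2 the count was 6 in each case, and the 6 genes kept in every such fit were Hoxa9, Hoxa10, Hoxb5, Hoxc6, Hoxc8 and Hoxc9. Between muscle and adipose 3 were higher in muscle (Hoxa9, Hoxa10 and Hoxc10) and 6 lower (Hoxa2, Hoxa4, Hoxa5, Hoxb5, Hoxb6 and Hoxb7). This made 25.7% against 6.12% of all genes tested, of which 2.34% were higher and 3.78% lower. Without adipose library 2 the share of all genes tested that were called rose above the Hox share. Hoxa9, Hoxa10 and Hoxc10 were not at the filter's level in both adipose libraries, which favours higher values in muscle. Of the 16 members at that level in every group, 0 were higher and 6 lower, or 37.5%. With library totals alone the split was 4 higher and 2 lower, and the median of all genes tested moved by 0.52. Without a muscle library the share of all genes tested that were called fell, and so did the Hox count. The count of 9 fell to 1, Hoxa10, without muscle library 1 and to 1 without muscle library 2, while all 9 kept their direction in every fit with a library left out.

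Between pancreas and adipose 2 were higher in pancreas, Hoxb4 and Hoxb5, and 6 lower, Hoxa7, Hoxc6, Hoxc8, Hoxc9, Hoxd4 and Hoxd8, which is 22.9% against 9.05% of all genes tested (3.32% higher and 5.73% lower). Of those lower, Hoxc8, Hoxc9 and Hoxd4 were not at the filter's level in both pancreas libraries. Of the 16 members at that level in every group, 2 were higher and 3 lower, or 31.2%. With library totals alone the split was 4 higher and 4 lower, and the median of all genes tested moved by 0.64. The count of 8 fell to 2 without pancreas library 1 and to 0 without pancreas library 2, where edgeR gave 11 Hox genes with an unadjusted p below 0.05 and adjusted p-values from 0.0508. All 8 kept their direction in every fit with a library left out. In the fits without a pancreas library the share of all genes tested that were called fell as well. Without adipose library 2 that share rose above the Hox share. The median log2 fold change over the 35 tested members was -0.76 for muscle against adipose, -0.37 for pancreas against adipose and -0.34 for pancreas against muscle, beside -0.01, -0.00 and -0.00 over all genes tested. Over the 16 members at the filter's level in every group these medians were -1.18, 0.37 and 1.74, so that those involving pancreas had the opposite sign. Pancreas and muscle FAP+ cells thus differed in both directions along the clusters, with the change of sign between paralogs 5 and 7 in HoxA. The 3 comparisons share libraries in pairs, and the plot of differences between tissues sets them side by side.

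**Figure D4:**
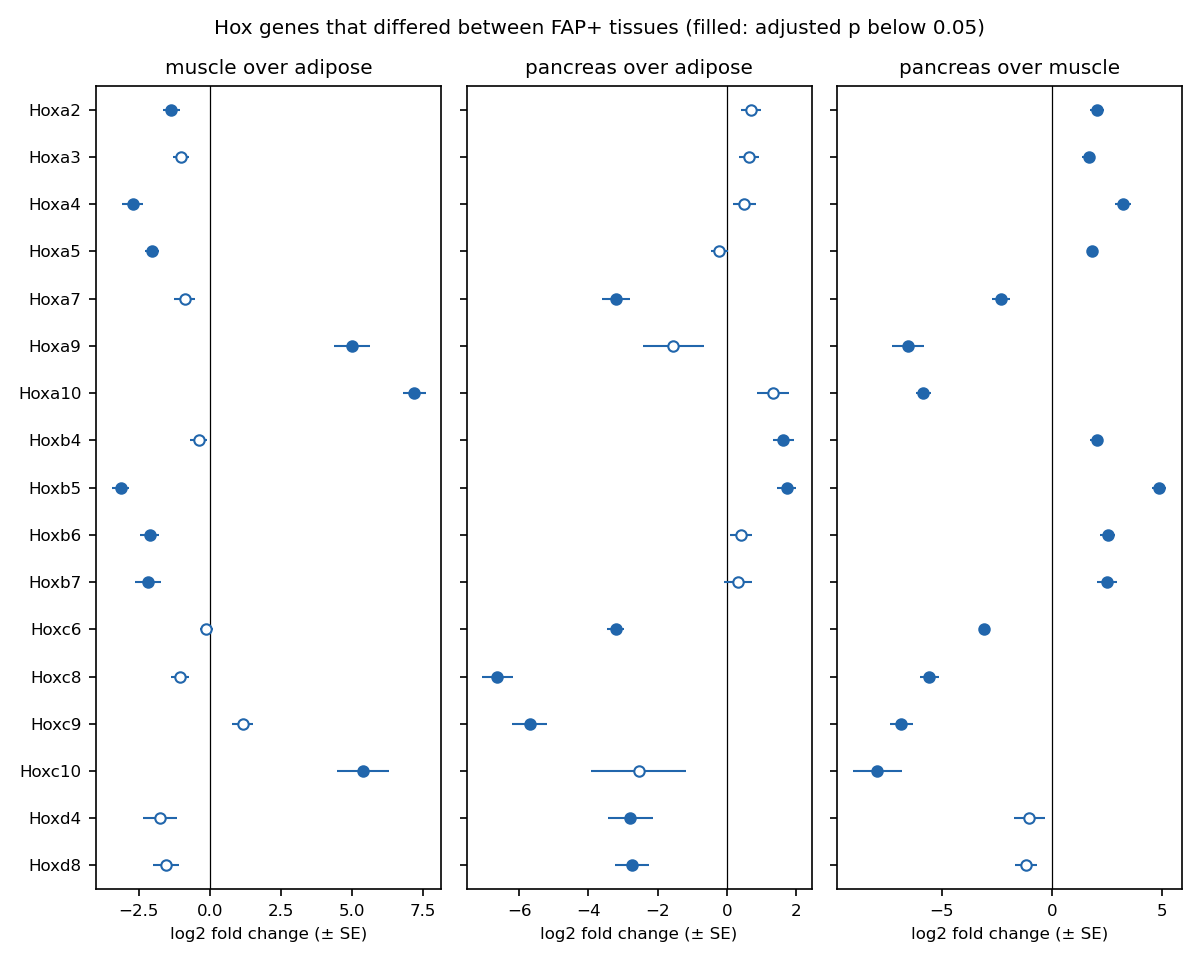
Points give the edgeR log2 fold change, with bars of 1 SE, of the 17 Hox genes called in at least 1 comparison between FAP+ groups, in a panel for each comparison; filled points passed an adjusted p of 0.05. In the panel of pancreas over muscle, Hoxa2 to Hoxa5 and Hoxb4 to Hoxb7 lie to the right of 0, and Hoxa7 to Hoxa10 and the HoxC genes to the left.

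The RPKM table, which lacks the bias adjustment of the fragment and FPKM tables, gave a different picture of adipose library 1. The median ratio of RPKM to FPKM over Hox genes at 1 FPKM or more was 1.74 in that library and 0.837 to 1.02 in the others, against 0.893 over all genes of that library. Hoxc8 was at 5.96 FPKM and 25.5 RPKM there, and at 20.4 FPKM and 32.1 RPKM in adipose library 2. Hoxa5 was at 10.9 FPKM and 41.6 RPKM in adipose library 1, and at 21.2 and 28.6 in adipose library 2. The level of these genes in adipose therefore depends on which deposited table is read. On whole reads recovered from the RPKM table, 15 Hox genes differed between muscle and adipose and 14 between pancreas and adipose, with 17 between pancreas and muscle. The shares of all genes tested were 13.5%, 22.5% and 6.05% there. They were 6.12%, 9.05% and 3.67% on the fragment counts, so calls rose over all genes as well.

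The 12 TALE cofactors listed, which bind DNA with Hox proteins, were all tested. Against MEFs 3 were higher and 1 lower in adipose, 1 higher and 3 lower in muscle, and 5 higher and 2 lower in pancreas. This made 33.3%, 33.3% and 58.3% of the list, beside 50.1%, 43.8% and 42.5% of all genes tested. Pbx3, a Hox partner, stood at 3.39 to 4.66 CPM in the 6 FAP+ libraries and 19.1 and 16.5 in MEFs, without overlap, and was lower by log2 fold changes of -2.05 in adipose, -2.17 in muscle and -2.31 in pancreas (each SE 0.28, highest adjusted p = 0.000924). Meis1, a partner of posterior Hox proteins and Pbx, gave 24.2 and 40.4 CPM in adipose, 11.8 and 15.4 in muscle, 46.7 and 61.9 in the pancreas and 20 and 11.9 in MEFs. Pancreas was the highest group and exceeded muscle by 2.00 (SE 0.38, adjusted p = 0.0344) and MEFs by 1.77 (SE 0.38, adjusted p = 0.00771). Meis3 gave 43 and 13.1 CPM in the adipose libraries and 5.85 and 5.28 in MEFs, a log2 difference of 2.33 (SE 0.53, adjusted p = 0.00881). The adipose libraries were apart from each other there, but neither overlapped the MEFs. Tgif1, a TALE repressor, gave 207 and 148 CPM in adipose and 37.2 and 36 in pancreas, without overlap (log2 -2.28, SE 0.30, adjusted p = 0.00594).

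Of 16 listed genes that act upstream of Hox expression, 11 were tested, and 4 were higher and 2 lower than in MEFs in adipose, 5 and 1 in muscle, and 5 and 1 in pancreas. Each count was 54.5% of the genes tested from the list, near the background of 50.1%, 43.8% and 42.5%. Aldh1a2, which makes retinoic acid, an inducer of anterior Hox genes, stood at 12.7 and 16.7 CPM in adipose, 23.9 and 15.4 in muscle, 98.3 and 90.8 in the pancreas and 1.23 and 1.09 in MEFs. Pancreas lay above all other groups, by a log2 fold change of 2.68 against adipose (SE 0.31, adjusted p = 0.00425), 2.27 against muscle (SE 0.30, adjusted p = 0.00914) and 6.34 against MEFs (SE 0.37, adjusted p = 4.71e-05). Zbtb16, a zinc finger repressor of Hox genes in the limb, gave 14.6 to 67.7 CPM in FAP+ libraries and 4 fragments in the MEF libraries together (log2 9.82 in muscle, SE 0.65, adjusted p = 6.16e-05). Egr2, which switches on Hox genes in the hindbrain, gave 19 to 63.8 CPM in FAP+ libraries and 3.3 and 2.55 in MEFs (log2 4.09 in adipose, SE 0.48, adjusted p = 0.000486). Gmnn, which encodes a replication licensing inhibitor that binds Hox and Polycomb proteins, gave 0.815 to 3.43 CPM in FAP+ libraries and 22.9 and 26.7 in MEFs (log2 -3.97 in muscle, SE 0.59, adjusted p = 0.00157). For each of these 4 genes the MEFs lay outside the range of the FAP+ libraries. The Cdx genes, direct activators of trunk Hox genes in the embryo, were not tested, with at most 0.839 CPM.

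Polycomb proteins keep Hox genes silent outside their domain, and trithorax proteins keep them active. Of 20 Polycomb genes tested, 4 were higher and 8 lower than in MEFs in adipose, 5 and 5 in muscle, and 7 and 5 in pancreas. These were 60.0%, 50.0% and 60.0% of the list, beside 50.1%, 43.8% and 42.5% of all genes tested. Ezh2, the histone H3 lysine methyltransferase of dividing cells, gave 9.8 to 18.5 CPM in FAP+ libraries and 92.5 and 73.9 in MEFs, with a log2 difference of -2.93 in pancreas (SE 0.26, adjusted p = 0.000174). Its paralog Ezh1 went the other way, with 18.5 to 47.8 CPM in FAP+ libraries and 5.34 and 6.01 in MEFs (3.01 in muscle, SE 0.28, adjusted p = 0.000214). Cbx7, a reader of the mark, gave 18.3 to 25.9 CPM in FAP+ libraries and 0.99 and 1.31 in MEFs (4.48 in muscle, SE 0.31, adjusted p = 7.04e-05), and Bmi1 gave 1.98 to 5.55 and 28.5 and 16.7 CPM (-2.57 in adipose, SE 0.50, adjusted p = 0.00437). None of the 20 was called between FAP+ groups by edgeR. At an unadjusted p below 0.05 there were 4 for muscle against adipose, 6 for pancreas against adipose and 0 for pancreas against muscle, and DESeq2 called 1, 1 and 0. Of 11 trithorax genes and demethylases, 3 were higher and 4 lower than in MEFs in adipose, 3 and 1 in muscle, and 1 and 1 in pancreas. Their shares of 63.6%, 36.4% and 18.2% stand beside 50.1%, 43.8% and 42.5% of all genes tested. The H3K27 demethylase Kdm6b gave 43 and 474 CPM in adipose, 171 in both muscle libraries, 72 and 106 in the pancreas and 13 and 19.9 in MEFs (3.98 in adipose, SE 0.97, adjusted p = 0.0116). Its adipose libraries were far apart, but all FAP+ libraries lay above the MEFs. The H3K79 methyltransferase Dot1l was higher in adipose than in MEFs by 3.23 (SE 0.51, adjusted p = 0.00189), and the core subunits Ash2l and Rbbp5 were lower, by -2.19 (SE 0.38, adjusted p = 0.00289) and -1.71 (SE 0.31, adjusted p = 0.00352).

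Genes that flank the clusters but are not Hox genes were listed for comparison, 19 in the table and 15 tested. Against MEFs 2 were higher and 8 lower in adipose, 1 and 5 in muscle, and 1 and 4 in pancreas. The shares called were 66.7%, 40.0% and 33.3%, beside 50.1%, 43.8% and 42.5% of all genes tested. Between tissues 1 was lower in muscle than in adipose, 1 was higher in pancreas than in adipose, and 0 differed between pancreas and muscle, where 2 had an unadjusted p below 0.05 and DESeq2 called 1. The first was Skap2, an adaptor protein gene beside HoxA, with 20 and 17.9 CPM in adipose and 3.7 and 5.06 in muscle, without overlap (log2 -2.11, SE 0.32, adjusted p = 0.0123). The second was Smug1, a DNA repair gene near HoxC, with 1.45 and 1.78 CPM in adipose and 4.17 and 4.36 in pancreas (1.39, SE 0.32, adjusted p = 0.0367). Lnp, beside HoxD, was lower in adipose than in MEFs by -1.79 (SE 0.40, adjusted p = 0.00782). Hnrnpa1, near HoxC, had 0.762 and 36.7 CPM in the adipose libraries and 358 and 348 in MEFs (-4.22, SE 1.33, adjusted p = 0.0316), and adipose library 1 lay far below adipose library 2. Of 9 listed non-coding RNAs of the clusters, 2 were tested, and Hoxa11as was the one that differed from MEFs, by -5.97 in adipose (SE 0.80, adjusted p = 0.000866), -5.95 in muscle (SE 0.79, adjusted p = 0.000923) and -7.27 in pancreas (SE 0.88, adjusted p = 0.000623).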

How the data were processed

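Per the labels, Purelink RNA went through MessageAmp amplification and the Illumina mRNA library kit. Amplification from the poly(A) tail favours 3' ends, which limits comparison of levels between genes. The authors deposited 3 tables. Per the file headers, they hold bias-adjusted estimated counts of fragments, the matching FPKM, and RPKM without that adjustment. Bowtie2, TopHat2, HTSeq, edgeR and mm9 are named in the submitters' processing notes, with no versions or roles. Column names matched the 8 samples in each table, and a further 6 columns per table were left unused.

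Estimated counts were rounded to whole numbers, filtered with filterByExpr and scaled by TMM. One edgeR 4.0.16 quasi-likelihood fit of all 8 libraries (4 residual degrees of freedom, common biological coefficient of variation 33.2%) gave 6 pairwise comparisons and 2 tests of any difference, with Benjamini-Hochberg adjustment over 14847 genes and a threshold of 0.05. Scripts were tested on simulated data. Alternatives were other scalings, DESeq2 1.42.0, other filters, a replicate block, each library left out, limma 3.58.1 on log2(FPKM + 1) or log2(FPKM + 0.1), and edgeR on whole reads recovered from RPKM, where 99.36% of values were whole within 1e-05. Replicate numbers were not used to pair samples in the main fit. P-values measure the spread between these libraries, and counting intervals (95%) and floors (3 fragments) cover counting error only. Members and lists were chosen with earlier results of these data known. Members called in any pairwise comparison, and up to 4 genes a list, were named, except 1 item that is not reported here. Promoter sequences are RefSeq's on GRCm38.p6, where 22 of the 39 genes matched. The mm9 genome was not used here, so no other coordinates are given.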

Additional observations from a re-analysis of the deposited data

Results flagged for a closer look

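For 5 Hox genes, in 8 pairs of tissues, edgeR called the difference from MEFs in both tissues with opposite signs and also called the direct difference between the tissues, which is the value given. Pairs in which a difference from MEFs was not called are left out, also where the libraries did not overlap. Hoxa4 was below MEFs in muscle and above them in adipose and pancreas (log2 -2.70 for muscle against adipose and 3.21 for pancreas against muscle), and so was Hoxb5 (-3.13 and 4.86). Hoxc8 was above MEFs in adipose and below them in pancreas (-6.63 for pancreas against adipose). Hoxc9 was above MEFs in muscle and below them in pancreas (-6.86 for pancreas against muscle). Hoxc10 was above MEFs in muscle and below them in adipose and pancreas (5.39 for muscle against adipose and -7.94 for pancreas against muscle, where pancreas had 2 fragments). With library totals alone adipose values fell relative to MEFs. Hoxa4, Hoxb5 and Hoxc8 were then above MEFs in adipose by 0.30, 0.66 and 0.16 with no call. With limma on log2(FPKM + 1) these 3 stood at 0.09, 0.32 and -0.20, also with no call.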

How the results depend on the processing

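Of 1855 alternative values for 94 calls of single Hox genes in pairwise comparisons, 1604 kept direction and call, 245 kept direction without passing the threshold, and 6 reversed. The reversed values were Hoxb4 in adipose against MEFs (-0.13, -0.21 and -0.13) and Hoxc8 (-0.20, -0.23 and -0.20), with limma at a pseudocount of 1, at 0.1, and at 1 with a minimum of 1 FPKM in 2 libraries. The cause was not tested. Fitting only the groups compared gave 2 called Hox genes for muscle against adipose (9 with all groups) and 4 for pancreas against adipose (8), with fewer members tested, 23 and 20. The shares of all genes tested in these fits were 0.536% and 2.22%. Recovered whole reads gave 15 and 14 for the same comparisons, beside 13.5% and 22.5% of all genes tested. Limma on log2(FPKM + 1) and on log2(FPKM + 0.1) gave 4 and 4 for muscle against adipose and 11 and 11 for any difference among FAP+ groups (17). The cause was not tested. At 2 FPKM, 10 Hox genes were detected in adipose in place of 16.

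Leaving out 1 library in turn, the remaining sample of a group being assumed to vary like the others, gave 10 to 17 called Hox genes for adipose against MEFs, 14 to 24 for muscle against MEFs, 18 to 26 for pancreas against MEFs, 1 to 11 for muscle against adipose, 0 to 10 for pancreas against adipose, 6 to 18 for pancreas against muscle, 24 to 32 for any difference among the 4 groups and 9 to 21 among FAP+ groups.

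With the replicate number as a block, these counts were 17, 22, 24, 7, 8, 15, 29 and 17. In the fits with 1 library left out, the share of all genes tested that were called in the pairwise comparisons changed as well. The correlations of same-numbered libraries' deviations ranged from -0.156 to 0.347, the highest being that of adipose with pancreas. They cannot show whether same-numbered libraries shared a batch, and the replicate numbers were treated as names. With library totals alone the median of all genes moved by -0.37 for muscle against MEFs, -0.24 for pancreas against MEFs and 0.12 for pancreas against muscle. Genes with fewer than about 10 fragments in a group, such as posterior HoxD genes in FAP+ cells, have differences that depend on the prior count, and their absence cannot be shown at this depth.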
